A study of Mus musculus with 3 samples.

Results

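The MHC class I presentation genes examined here were 10 rows of the expression matrix, chosen by gene symbol: H2-D1, H2-K1, H2-Q10, B2m, Tap1, Tap2, Tapbp, Psmb8, Psmb9 and Nlrc5. They are 10 of 27998 genes, and the list was drawn up with earlier results of these data known. They were followed in 7057 cells, those of 618189 barcodes with at least 1 unique molecular identifier (UMI) that passed filters on UMIs, genes and mitochondrial share. The cells came from the meninges of male C57BL/6J mice of 10 to 12 weeks, held either as unstressed home cage controls (HC) or through 14 days of chronic social defeat (CSD), a paradigm in which a mouse is repeatedly exposed to an aggressor. The CSD mice had been classed as stress-susceptible. Each library was a pool of 4 mice in its own lane of the same microfluidic chip, with 2 HC pools and 1 CSD pool. With 1 CSD pool, stress, pool and lane cannot be told apart. The tests between groups therefore rest on the spread between the 2 HC pools, and they assume that the single CSD pool varies like them.

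Class I molecules show peptides from inside the cell to CD8+ T cells and are watched for by natural killer (NK) cells. The proteasome cuts proteins into peptides, and in the immunoproteasome the subunits Psmb8, Psmb9 and Psmb10 take the place of Psmb5, Psmb6 and Psmb7. The transporter Tap1/Tap2 moves the peptides into the endoplasmic reticulum, where tapasin (Tapbp) helps to load them onto a heavy chain paired with beta-2 microglobulin (B2m). Nlrc5 is a transcriptional activator of these genes, and interferons are known to raise many of them. Neutrophils, monocytes, B cells at several stages of development, macrophages, dendritic cells and T cells all reside at the brain's borders, and nearly every nucleated cell carries some class I.

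Of the 10 genes, 8 lie on chromosome 17, within 1559 kb of the major histocompatibility complex (GRCm38/mm10). The classical heavy chain genes are H2-K1 (chr17:33996017-34000347, minus strand) and H2-D1 (chr17:35262730-35267499, plus strand). H2-Q10, a class Ib heavy chain whose product is secreted and is best known from liver, lies at chr17:35470089-35474563 on the plus strand. Psmb9 (chr17:34181987-34187764, minus strand), Tap1 (chr17:34187553-34197225), Psmb8 (chr17:34197721-34201454) and Tap2 (chr17:34203527-34216321) form a cluster, with Tapbp at chr17:33915899-33929292. Outside it are B2m (chr2:122147686-122153083, plus strand) and Nlrc5 (chr8:94434356-94527272, plus strand). All 10 are annotated as protein coding, and the intervals span the whole gene with its exons, introns and untranslated ends.

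RefSeq promoter sequences (GRCm38.p6) were matched for 8 of the 10 genes. Where a gene had several starts, the one furthest downstream was used. That start can lie inside the gene interval given above, as for H2-D1, and the distances below depend on it. Stretches of 5 promoters are shown because the members' patterns differed most between the H2-Q10 gene and its classical relatives. Tap1 and Psmb9 are included because a single short stretch lies between the starts used for them. H2-K1 is read from the minus strand, chr17:34000334-34000533. H2-D1 is chr17:35262894-35263093 and H2-Q10 is chr17:35469889-35470088, both plus strand. B2m is chr2:122147487-122147686, plus strand. The stretch between Psmb9 and Tap1 is chr17:34187331-34187555, written on the plus strand, the strand of Tap1. Capitals mark exact matches, on either strand, to the letters GGGGATTCC (a kappa B site), CCAAT (the core of the Y box) or GAAANNGAA (the core of an interferon-stimulated response element).
H2-K1: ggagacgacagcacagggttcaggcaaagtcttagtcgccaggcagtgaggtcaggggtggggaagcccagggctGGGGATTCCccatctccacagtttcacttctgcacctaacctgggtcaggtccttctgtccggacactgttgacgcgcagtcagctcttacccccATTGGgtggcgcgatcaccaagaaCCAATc
H2-D1: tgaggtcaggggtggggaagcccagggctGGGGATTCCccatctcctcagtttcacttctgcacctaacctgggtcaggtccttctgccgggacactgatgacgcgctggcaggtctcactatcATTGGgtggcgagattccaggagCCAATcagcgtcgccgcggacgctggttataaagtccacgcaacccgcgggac
H2-Q10: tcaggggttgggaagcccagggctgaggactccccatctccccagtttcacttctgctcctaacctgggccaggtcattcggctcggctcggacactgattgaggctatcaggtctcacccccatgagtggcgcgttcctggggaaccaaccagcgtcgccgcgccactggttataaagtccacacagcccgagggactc
B2m: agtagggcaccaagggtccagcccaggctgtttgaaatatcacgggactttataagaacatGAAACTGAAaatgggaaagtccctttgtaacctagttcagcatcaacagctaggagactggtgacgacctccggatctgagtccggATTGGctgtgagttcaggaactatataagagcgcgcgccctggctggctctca
Psmb9 to Tap1: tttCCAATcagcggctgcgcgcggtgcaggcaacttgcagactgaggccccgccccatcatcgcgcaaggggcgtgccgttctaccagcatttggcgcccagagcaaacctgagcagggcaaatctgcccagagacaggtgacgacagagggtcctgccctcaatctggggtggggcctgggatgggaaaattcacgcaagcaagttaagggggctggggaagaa

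The H2-K1 and H2-D1 stretches were 89.6% identical over 154 aligned positions. H2-D1 and H2-Q10 were 81.7% identical over 202, against 60.8% over 130 between H2-D1 and B2m. Within 250 bases before the start, the letters GGGGATTCC stood 171 bases before the H2-D1 start and 125 before that of H2-K1, and had no exact match in H2-Q10. Of 32851 promoters searched the same way, 0.213% held those letters. CCAAT, which 33.9% of promoters hold, occurred in H2-D1, H2-K1, B2m, Tap1, Psmb9 and Tapbp and had no match in H2-Q10. GAAANNGAA, found in 7.13% of promoters, occurred 139 bases before the B2m start and had no exact match in H2-D1, H2-K1 or H2-Q10. Only these exact letters were searched, so a site that differs from them by a base would be missed. The lack of a match therefore does not show that the heavy chain promoters lack an interferon-stimulated response element. The letters TTCNNNGAA (a gamma-activated site), found in 7.02%, occurred 97 bases before the Psmb8 start. These are matches of letters and not measured binding.

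The libraries held 9891861, 8814690 and 10206236 UMIs in total and 2599, 1702 and 2756 cells (the first and second HC pools, then the CSD pool, the order used throughout). Median depth was 2212 to 2503 UMIs per cell. The second HC pool stood apart: 59.5% of its UMIs lay in cells against 91.1 and 93.9%, and 24.1% of its UMIs lay in empty droplets (barcodes of at most 100 UMIs) against 7.87 and 5.48%. At most 8 barcodes were shared between any 2 libraries. Free RNA in the droplets carried class I transcripts: the empty droplets held H2-D1, H2-K1 and B2m together at 3482, 3738 and 2950 CPM (UMIs of a gene relative to all UMIs counted, scaled to a fixed total). The estimated share of free RNA in the cells of the types tested was lower in the CSD library for most of them, for example 28.9, 26.8 and 21.2% in neutrophils. Cells were clustered without the class I genes, and 18 cell types were named from marker genes. A name such as NK or T stands below for the NK-like or T-like clusters. They included 1680 mature and 963 immature neutrophil-like cells, 221 preneutrophil-like cells, and also 373 microglia-like, 176 olfactory neuron-like and 62 erythroid-like cells, which are cell types of the brain, the olfactory epithelium and the bone marrow. The T-like cluster (493 cells) had group 2 innate lymphoid cell (ILC2) markers as its second-best match, and at a clustering resolution of 2 a T-like cluster held 291 cells and an ILC2-like cluster 204. T cell values below are for the 493 cells together. The border macrophage-like class joins 2 clusters in unequal proportions, the smaller of which held 136 of its 320, 8 of 55 and 27 of 125 cells. Levels are CPM within a cell type and library, given as mean ± SD over the 3 libraries, and they compare 1 gene across cell types. Because the types were defined from the same cells, their levels are a description with no test. The order below covers the 16 types with at least 10 cells in every library.

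NK and T cells stood at the top of the class I order, and olfactory neurons and erythroid cells at the bottom. The summed level of H2-D1, H2-K1 and B2m was 7717 ± 413 CPM in NK cells (n = 3). Its values in the 3 libraries were 7285, 7760 and 8108 CPM. T cells held 6010, 6296 and 7025 CPM, so that the NK range lay wholly above the T range. Border macrophages (5734 ± 558 CPM), pre-B and immature B cells (5258 ± 337), conventional dendritic cells (cDC, 5188 ± 643), plasmacytoid dendritic cells (pDC, 4860 ± 479) and monocytes (4574 ± 795) followed, each overlapping its neighbour. Mature B cells held 4304 ± 309 CPM and microglia 4167 ± 56. Among neutrophils, the mature cells held 2894 ± 175 CPM, the immature cells 1830 ± 215 and the preneutrophils 1728 ± 130. Fibroblasts held 2281 ± 234 CPM. Immature neutrophils, preneutrophils and fibroblasts lay below the empty droplets (3482, 3738 and 2950 CPM) in every library, and mature neutrophils did so in both HC pools. Olfactory neurons (872 ± 219 CPM) and erythroid cells (859 ± 110) lay lowest, at 0.25 times the level in empty droplets, and the highest and lowest types differed 8.98-fold. The estimated free RNA was 36.3, 33.1 and 17.4% in olfactory neurons and 36.2, 25.8 and 29.1% in erythroid cells. Its part in these lowest levels, and so in the 8.98-fold range, was not tested. In 10 of the 15 steps down this order the neighbouring types overlapped. Counted per cell in place of CPM, the deeper cells led: cDC held 27.4 UMIs of the 3 genes per cell, monocytes 22.4, NK cells 18.0 and mature neutrophils 4.57.

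**Figure D1:**
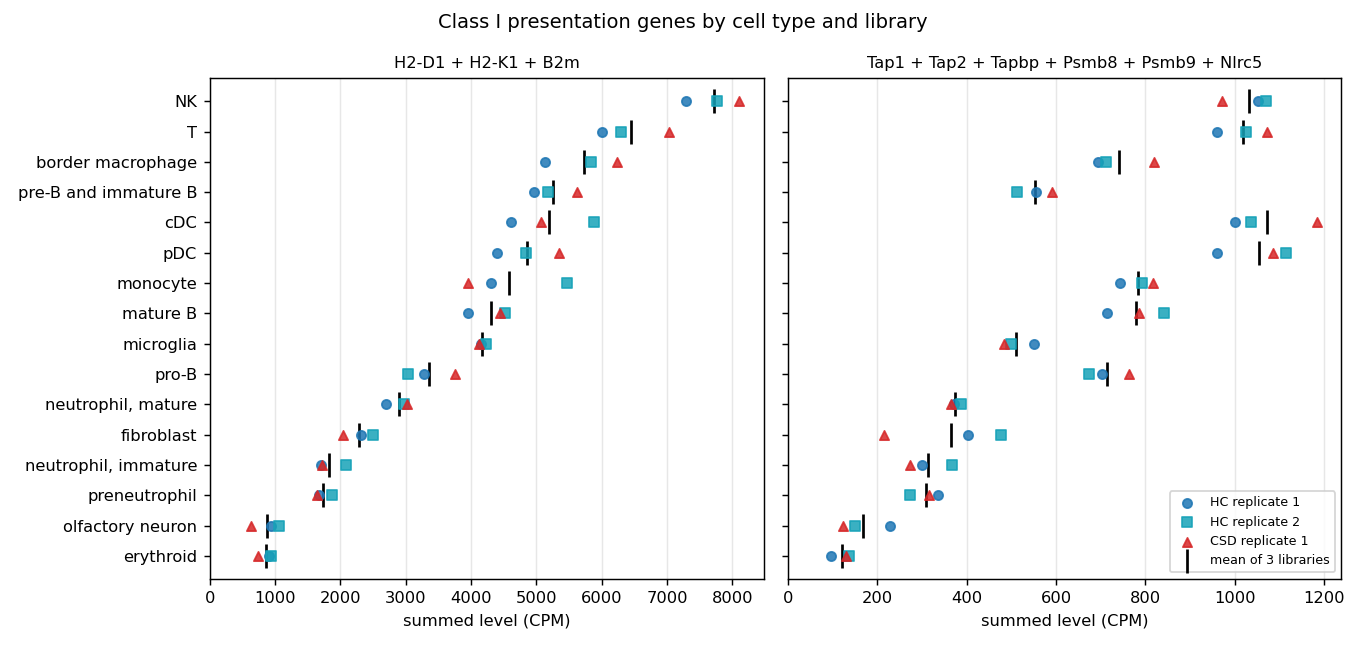
Summed level (CPM, x axis) of H2-D1, H2-K1 and B2m (left) and of Tap1, Tap2, Tapbp, Psmb8, Psmb9 and Nlrc5 (right) in 16 cell types; each point is 1 library and the tick is the mean of the 3. NK cells lead on the left at 7717 CPM, while cDC, pDC, NK and T cells share the top on the right at 1019 to 1073 CPM, and olfactory neurons and erythroid cells are lowest in both.

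The genes that cut, move and load peptides followed a similar order with a different top. The summed level of Tap1, Tap2, Tapbp, Psmb8, Psmb9 and Nlrc5 was 1073 ± 98 CPM in cDC, 1053 ± 82 in pDC, 1031 ± 52 in NK cells and 1019 ± 56 in T cells. These 4 types overlapped, and T cells lay above monocytes (784 ± 37 CPM) in every library. Mature B cells (779 ± 64 CPM), border macrophages (742 ± 68) and pro-B cells (713 ± 46) came next. Mature neutrophils (375 ± 12 CPM), fibroblasts (366 ± 135), immature neutrophils (314 ± 48) and preneutrophils (308 ± 32) overlapped in sequence below microglia (511 ± 36). Empty droplets held 536, 598 and 518 CPM of the 6 genes.

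Relative to the neutrophils of the same library, mature and immature cells pooled (2643 cells), both sums were higher in T, NK, mature B, monocyte and border macrophage cells in all 3 libraries. On the log2 scale the class I sum was higher by 1.77 ± 0.09 in NK cells and by 1.51 ± 0.13 in T cells. For the peptide-processing sum the same ratios were 1.61 in NK cells and 1.59 in T cells. Monocytes stood 1.00 above neutrophils in the class I sum and 1.21 in the peptide-processing sum. Fibroblasts stood at 0.01 ± 0.14 and 0.04 ± 0.49, above neutrophils in some libraries and below them in others.

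H2-D1 was highest in NK cells, at 2103, 2851 and 2295 CPM, and lowest in erythroid cells, at 240 ± 18 CPM. Pre-B and immature B cells (1975 ± 152 CPM), T cells (1747 ± 209) and border macrophages (1683 ± 166) followed it. Mature neutrophils held 1347, 1591 and 1774 CPM of H2-D1, a level that overlapped monocytes, mature B cells and border macrophages. In their class I sum the same mature neutrophils lay below all of these types.

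H2-K1 was higher in NK and T cells than in any other of the 16 types. NK cells held 1767, 1781 and 2188 CPM and T cells 1465, 1609 and 1657 CPM, with no overlap. The next type, pre-B and immature B cells, held 776, 946 and 880 CPM, below every T cell value. Mature neutrophils held 307 ± 39 CPM, immature neutrophils 236 ± 46 and preneutrophils 258 ± 50. Empty droplets held H2-K1 at 639, 661 and 567 CPM, above these neutrophil levels in every library, so free RNA may make up much of them.

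B2m, the light chain that every class I molecule needs, was highest in NK cells (3389 ± 249 CPM), border macrophages (3258 ± 389) and T cells (3119 ± 245), whose ranges overlapped. Microglia held 2749, 2745 and 2761 CPM, the narrowest spread of any B2m level among the 16 types. Mature neutrophils held 1017 ± 38 CPM and olfactory neurons 411 ± 102.

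The balance of the 2 classical heavy chains differed among cell types. The share of H2-D1 in the UMIs of H2-D1 plus H2-K1 is read across cell types here, since the 3′ tags of different genes need not be counted with equal efficiency. It was 81.0, 82.4 and 87.1% in mature neutrophils, 73.8 ± 1.3% in monocytes, 64.2 ± 0.8% in mature B cells, 63.0 ± 1.0% in cDC, 55.7 ± 5.3% in NK cells and 52.5 ± 1.6% in T cells. Every library of mature neutrophils lay above every library of these 5 types. In the last 400 bases of their transcripts, 4.04% of 60-base windows of H2-D1 and 5.34% of those of H2-K1 also occur in another gene, so few tags could be split between the 2.

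**Figure D2:**
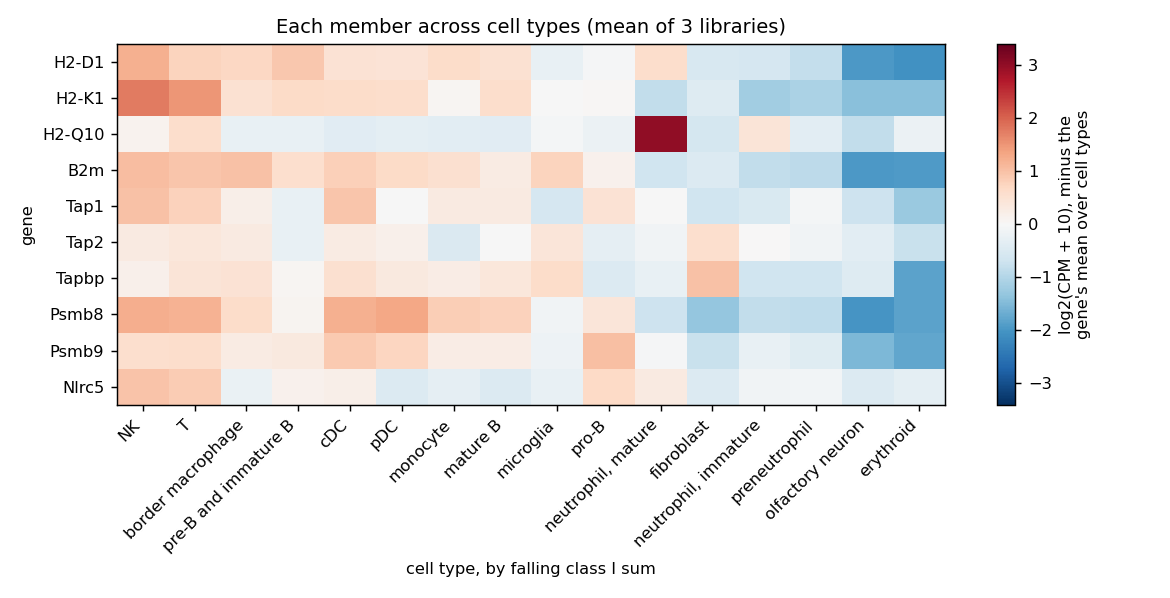
Level of each of the 10 genes (rows) in 16 cell types (columns, by falling class I sum), as log2(CPM + 10) of the mean of 3 libraries minus the gene's own mean over types. Most rows shade from high at left to low at right, while H2-Q10 has its single high cell in mature neutrophils (220.3 CPM).

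H2-Q10 stood alone in its pattern. Mature neutrophils held it at 214, 227 and 221 CPM, from 164, 116 and 313 UMIs. The next of the 16 types, T cells, held 23.2, 54.7 and 21.9 CPM, a 6.62-fold lower mean with no overlap. Immature neutrophils held 28.7 ± 6.6 CPM, preneutrophils 12.3 ± 5.0, monocytes 12.3 ± 5.5 and NK cells 21.1 ± 14.1. Empty droplets held 30.8, 44.6 and 37.5 CPM, so that every type but mature neutrophils lay near or below the free RNA. The mature neutrophil level was 5.96 times that of the empty droplets.

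The share of cells with an H2-Q10 UMI showed the same at equal depth. With every cell thinned to 500 UMIs, 13.2, 13.7 and 11.2% of mature neutrophils had a UMI. In the other 15 types the mean share was at most 2.6%. Unthinned, the share in mature neutrophils was 26.3%, at library medians of 1296 to 1553 UMIs per cell.

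The neighbouring H2-Q genes, which encode other class Ib heavy chains, had the reverse pattern. H2-Q7 was at 493 ± 59 CPM in NK cells, 443 ± 34 in T cells and 21.2 in mature neutrophils. H2-Q6 was at 164 ± 14 CPM in NK cells and 4.7 in mature neutrophils, and H2-Q4 at 71.9 ± 47.6 and 6.0. No 60-base window in the last 400 bases of H2-Q10 occurs in another annotated gene, and none of H2-Q7. H2-Q4 (31.4%) and H2-Q6 (46.0%) share many windows with other genes, and their levels are uncertain for that reason.

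**Figure D3:**
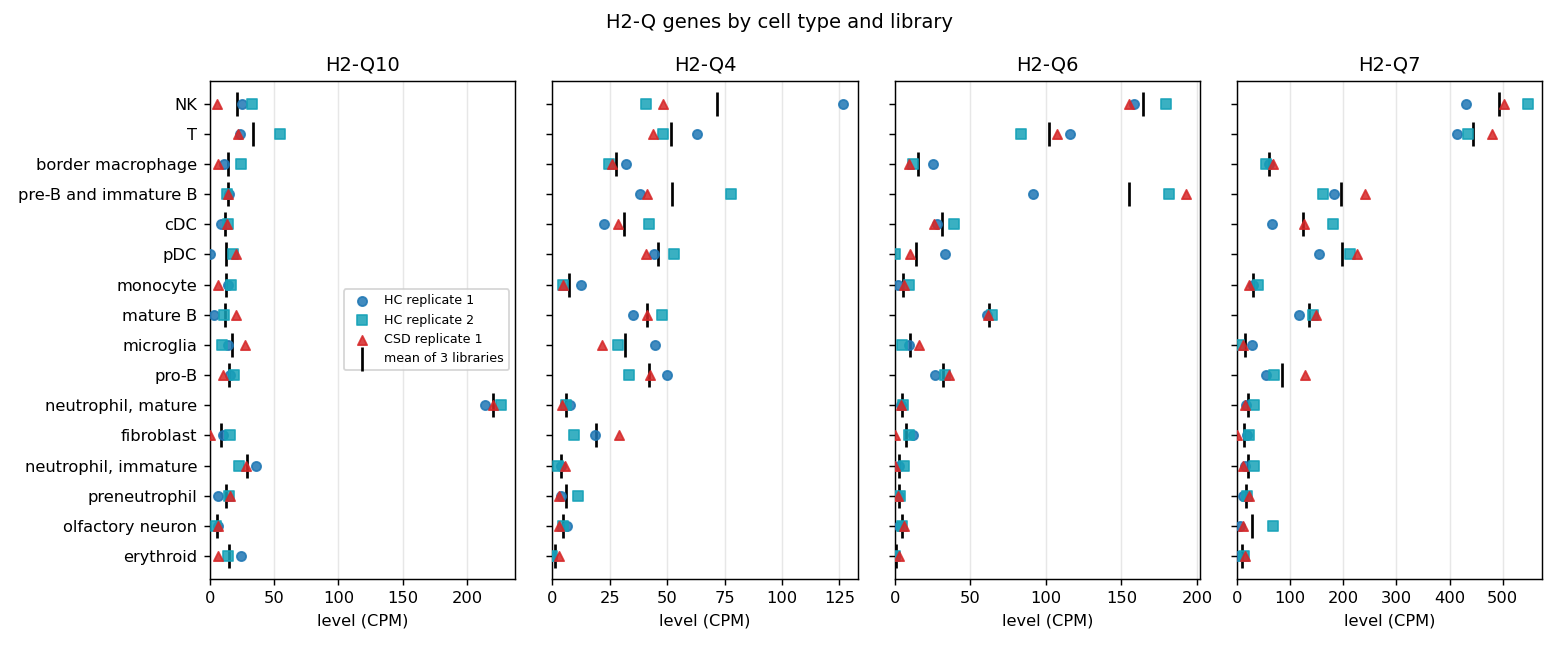
Level (CPM, x axis) of H2-Q10, H2-Q4, H2-Q6 and H2-Q7 in 16 cell types; each point is 1 library and the tick the mean of 3. H2-Q10 is at 214 to 227 CPM in mature neutrophils and at most 54.7 CPM in any library of the other types, whereas H2-Q7 peaks in NK and T cells at 493 and 443 CPM.

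Tap1, a transporter subunit, was highest in NK cells (61.9 ± 6.8 CPM), cDC (58.8 ± 18.5) and T cells (51.8 ± 5.8), and every neighbouring pair of types overlapped. Mature neutrophils held 25.7 ± 4.7 CPM and microglia 14.1 ± 2.3. Its partner Tap2, with 321 UMIs in the 16 types, was highest in fibroblasts at 32.9, 51.0 and 0 CPM, a spread as wide as the mean. All neighbours of Tap2 overlapped as well. Tapbp was highest outside the lymphocytes, in fibroblasts (179, 220 and 86.6 CPM) and microglia (136, 152 and 75.9 CPM), ahead of cDC (116 ± 12) and border macrophages (111 ± 9). In both fibroblasts and microglia its CSD value lay below both HC values.

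Psmb8, the catalytic subunit that replaces Psmb5, was highest in pDC (745 ± 34 CPM), NK cells (696 ± 59), cDC (683 ± 69) and T cells (673 ± 55), with no overlap between T cells and monocytes (532 ± 41). Mature neutrophils held 175 ± 11 CPM and olfactory neurons 65.2 ± 30.5. Psmb9, which replaces Psmb6, was highest in pro-B cells at 212, 192 and 216 CPM, followed by cDC (188 ± 37) and pDC (165 ± 12), with overlapping neighbours throughout. Nlrc5 gave 94 UMIs in the 16 types and was too sparse to order. Its T cell level was 14.9 ± 2.1 CPM, from 7, 4 and 7 UMIs. It had 0 UMIs in mature B cells, fibroblasts, olfactory neurons and pDC, which allows up to 3.19, 3.45, 3.54 and 12.3 CPM in turn (3 UMIs of each type's total over the libraries, counting error only).

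The share of the immunoproteasome subunits Psmb8, Psmb9 and Psmb10 in the UMIs of all 6 catalytic subunits was highest in T cells, at 63.8, 66.9 and 67.2%. It was 63.1 ± 0.3% in cDC, 62.8 ± 2.6% in NK cells, 59.9 ± 1.6% in border macrophages and 59.8 ± 0.2% in mature B cells. Microglia (49.2 ± 2.0%) and mature neutrophils (48.7 ± 1.0%) lay lower and overlapped each other. Fibroblasts held 29.6 ± 3.9%, and olfactory neurons 20.8, 12.2 and 7.9%. The estimated share of free RNA in the olfactory neurons was 36.3, 33.1 and 17.4% in the same libraries, and its part in that spread was not tested.

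**Figure D4:**
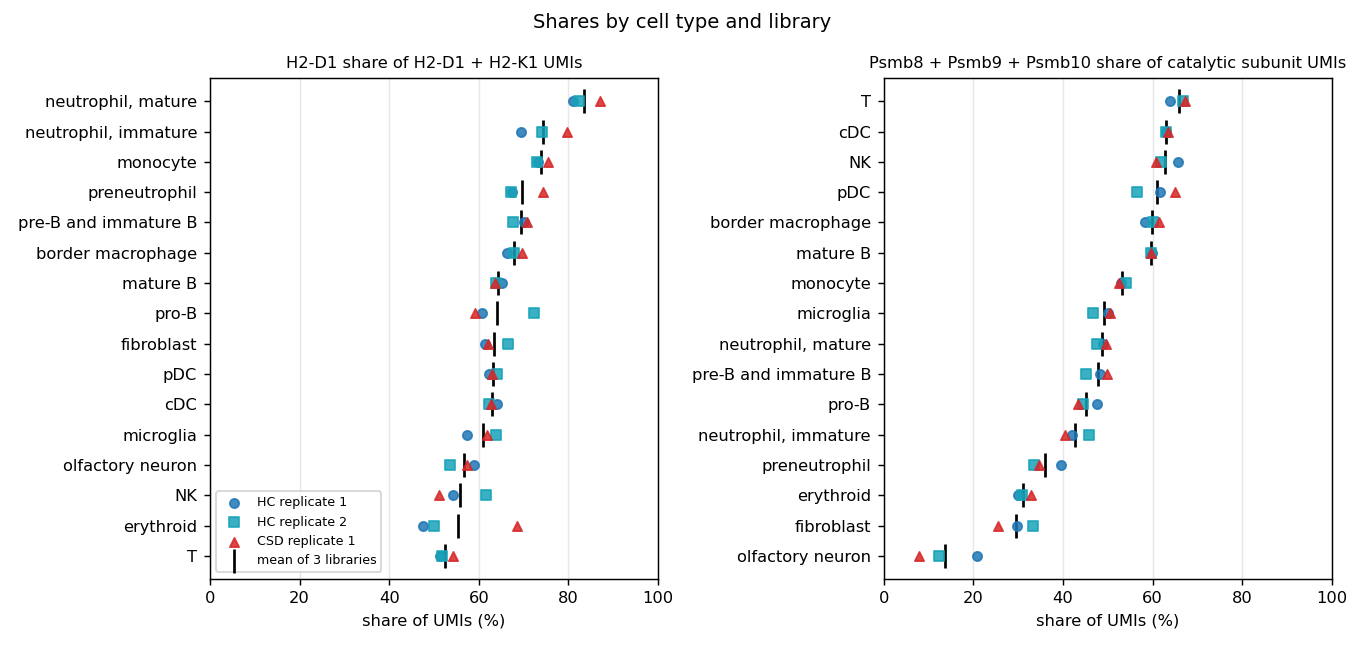
Share (%, x axis) of H2-D1 in H2-D1 plus H2-K1 UMIs (left) and of Psmb8, Psmb9 and Psmb10 in the UMIs of the 6 catalytic proteasome subunits (right), each panel in falling order; points are libraries and ticks their means. Mature neutrophils lead on the left at 83.5% with T cells lowest at 52.5%, and T cells lead on the right at 66.0% with olfactory neurons lowest at 13.7%.

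Along the neutrophil stages, H2-D1 and H2-Q10 were the members that separated immature from mature cells most. H2-D1 was 584, 769 and 719 CPM in immature and 1347, 1591 and 1774 CPM in mature neutrophils, higher by 1.17 ± 0.13 on the log2 scale in 3 of 3 libraries. H2-Q10 was higher by 2.59 ± 0.28, and its mean was 7.68-fold higher. These log2 differences, here and in the B lineage and macrophage comparisons below, were taken after adding 10 CPM to each level. That makes them smaller for genes at low levels. Tap1 (0.51 ± 0.13) and Tapbp (0.44 ± 0.24) were also higher in mature cells in 3 of 3 libraries, without overlap. H2-K1 was higher in 3 of 3 libraries by 0.37 ± 0.11, with overlapping ranges. B2m differed by 0.18 ± 0.15 and Psmb8 by 0.14 ± 0.15, with overlapping ranges. From preneutrophils to immature neutrophils, the class I sum differed by 0.08 ± 0.06 with overlapping ranges. The share of H2-D1 in the 2 classical heavy chains was 69.6 ± 4.0% in preneutrophils, 74.4 ± 5.1% in immature and 83.5 ± 3.2% in mature neutrophils. The immunoproteasome share was 35.9 ± 3.2, 42.8 ± 2.8 and 48.7 ± 1.0% in the same stages.

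In the B lineage, H2-D1 and B2m differed between stages in the opposite direction to Psmb8. From pro-B to pre-B and immature B cells, H2-D1 went from 1001 ± 74 to 1975 ± 152 CPM, a log2 difference of 0.97 ± 0.15, and B2m was higher by 0.44 ± 0.14. Over the same step Psmb8 was lower in 3 of 3 libraries, at 391 against 312 CPM, and Psmb9 was lower at 207 against 124 CPM. Tapbp was higher in 3 of 3 libraries, at 52.0 against 79.1 CPM (0.55 ± 0.45), while Tap1 and Tap2 overlapped. The peptide-processing sum, most of it Psmb8, had a log2 difference of -0.36 ± 0.03. From there to mature B cells these directions turned: H2-D1 had a log2 difference of -0.40 ± 0.10 and B2m of -0.29 ± 0.12, whereas Psmb8 was higher by 0.70 ± 0.11. H2-K1 (-0.05 ± 0.02) and Psmb9 (-0.07 ± 0.60) overlapped over this step.

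Of the 2 resident macrophage populations, border macrophages held more class I than microglia. H2-D1 was higher in them by 0.95 ± 0.11 on the log2 scale, Psmb8 by 0.75 ± 0.19, H2-K1 by 0.52 ± 0.15 and B2m by 0.24 ± 0.17, with no overlap in any of the 4. In the smaller of the 2 border macrophage clusters alone, H2-D1 and H2-K1 did not overlap microglia, while B2m (2782 ± 544 CPM) and Psmb8 (312 ± 60) did. Tap2 and Tapbp overlapped between the 2 types. Against monocytes, border macrophages held more H2-K1 (0.49 ± 0.32) and B2m (0.45 ± 0.31) without overlap, while H2-D1 and Psmb8 overlapped.

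Across the 16 types H2-D1, H2-K1, B2m, Psmb8 and Psmb9 varied together, as a description over types that share libraries and free RNA. Pearson's r of log2(CPM + 10) was 0.92 between B2m and Psmb8, 0.91 between Psmb8 and Psmb9, and 0.89 between H2-D1 and B2m, and was lowest among these 5 genes between H2-K1 and Psmb9, at 0.78. Of the sparser members, Tap1 followed these 5 genes with r of 0.74 (B2m) to 0.85 (Psmb8). Tapbp had r of 0.53 to 0.74 with them, Tap2 0.39 to 0.57 and Nlrc5 0.39 to 0.54. Among the sparser members, r was 0.79 between Tap2 and Tapbp, 0.36 between Tap1 and Tap2 and 0.01 between Tapbp and Nlrc5. H2-Q10 had r of -0.12 to 0.40 with the other members. Of 4806 genes outside the pathway list, those most like the class I sum over the 16 types were Epsti1 (r = 0.93), an interferon-inducible gene highest in NK cells at 265 CPM, and Rpl37 (0.93), Gm6133 (0.91), Arrdc1 (0.91) and Rps9 (0.90). Those most like the peptide-processing sum were Rpl37, Rps27a and Gm6133 (each 0.96), Rps9 (0.94) and Rpl35a (0.93). Rpl37, Rps27a, Rps9 and Rpl35a encode ribosomal proteins.

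The second question was whether CSD altered these genes within a cell type. None of the 10 members passed the test in any cell type. UMIs were summed per library and type, and CSD was set against HC with edgeR (quasi-likelihood F-test, p-values adjusted by the Benjamini-Hochberg method over all genes of the type, threshold 0.05). In the 14 types with at least 20 cells in every library, 100 tests of members passed a filter of 30 UMIs. Of these 0 were called, 9 had an unadjusted p under 0.05, 54 were higher and 46 lower in CSD. Over all genes in the same types 0.401% of 53321 tests were called and 6.36% had an unadjusted p under 0.05. DESeq2 called 0 of the 100 and gave 0 an unadjusted p under 0.05. Over all genes DESeq2 called 26 of 53321 tests and gave 414 an unadjusted p under 0.05. Members under the filter were not tested: H2-Q10 was tested in mature and immature neutrophils and in T cells, and Nlrc5 only in mature and immature neutrophils pooled.

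Mature neutrophils had 9 members tested and 0 called, against 0.087% of all genes called. H2-D1 alone had an unadjusted p under 0.05, with 1376 and 1519 normalised CPM in the HC pools against 1978 in the CSD pool. The log2 fold change of 0.45 had a standard error of 0.14 and a 95% interval of 0.11 to 0.80 (edgeR adjusted p = 0.441). With no filter on low counts the value was 0.59 and passed (adjusted p = 0.0261). H2-Q10 stood at 218 and 216 normalised CPM in HC and 246 in CSD, a log2 fold change of 0.18 with an interval of -0.22 to 0.58 (adjusted p = 0.756). The median over the 9 members was 0.08, beside -0.01 over all genes.

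Immature neutrophils had 9 members tested and 0 called (0.166% of all genes), and 0 had an unadjusted p under 0.05. H2-D1 was at 599, 722 and 791 normalised CPM (log2 fold change 0.26) and H2-K1 at 263, 252 and 203 (-0.35). Preneutrophils had 7 tested and 0 called (1.09% of all genes).

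With mature and immature neutrophils pooled and preneutrophils left out, 10 members were tested, 0 were called and 1 had an unadjusted p under 0.05 (DESeq2: 0 and 0), against 2.05% of all genes called. H2-D1 was at 903, 1017 and 1279 normalised CPM, a log2 fold change of 0.41 (SE 0.15, interval 0.10 to 0.72, adjusted p = 0.218). Without the filter it was 0.51 and passed (adjusted p = 0.0393). Its sign held in 12 of 12 alternatives, from 0.29 to 0.51. B2m was at 931, 973 and 970 normalised CPM, a log2 fold change of 0.03 with an interval of -0.28 to 0.34. The share of H2-D1 in the 2 classical heavy chains was 76.2 and 78.6% in HC and 84.2% in CSD. The CSD value lay above both HC values in each of the 3 stages, all from the same CSD pool. The estimated free RNA in the pooled neutrophils was 28.9, 26.8 and 21.2%. Empty droplets held H2-D1 at 1046, 1320 and 1008 CPM and H2-K1 at 639, 661 and 567 CPM, a lower H2-D1 share than in these cells. The part of free RNA in the difference was not tested.

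Monocytes had 7 members tested and 0 called, against 1.45% of all genes. H2-K1 was at 553 and 766 normalised CPM in HC and 484 in CSD, a log2 fold change of -0.44 (SE 0.21, adjusted p = 0.436). H2-D1 was at 1510, 2071 and 1480 normalised CPM (-0.27) and B2m at 2590, 2697 and 2197 (-0.27). The 2 HC values of H2-D1 lay further apart than the CSD value lay from the lower of them. Clustered with no correction between libraries, the monocyte cluster gave H2-K1 at -0.67, H2-D1 at -0.62 and B2m at -0.61, all 3 called (adjusted p = 0.0218, 0.0372 and 0.0452). That cluster held 201 CSD cells in place of 127, and 1535672 CSD UMIs in place of 659324. Its HC cells numbered 112 and 95 in place of 104 and 88. The cells that joined it thus came mostly from the CSD pool, and their part in these calls was not tested.

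The difference between the CSD effect in pooled neutrophils and that in monocytes was tested with the library as a block. Of 7 members 0 passed, 2 had an unadjusted p under 0.05, and 0.346% of all genes were called. DESeq2 called 0 of the 7 members and 2 of all 4339 genes, and gave 1 member an unadjusted p under 0.05. The log2 effect on H2-D1 was higher in neutrophils than in monocytes by 0.65 (SE 0.12, edgeR adjusted p = 0.0531) and that on B2m by 0.27 (SE 0.087, adjusted p = 0.283). H2-D1 thus missed the threshold narrowly, and 1 member passed with another size factor, with no filter, or with the filter on the share of cells.

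**Figure D5:**
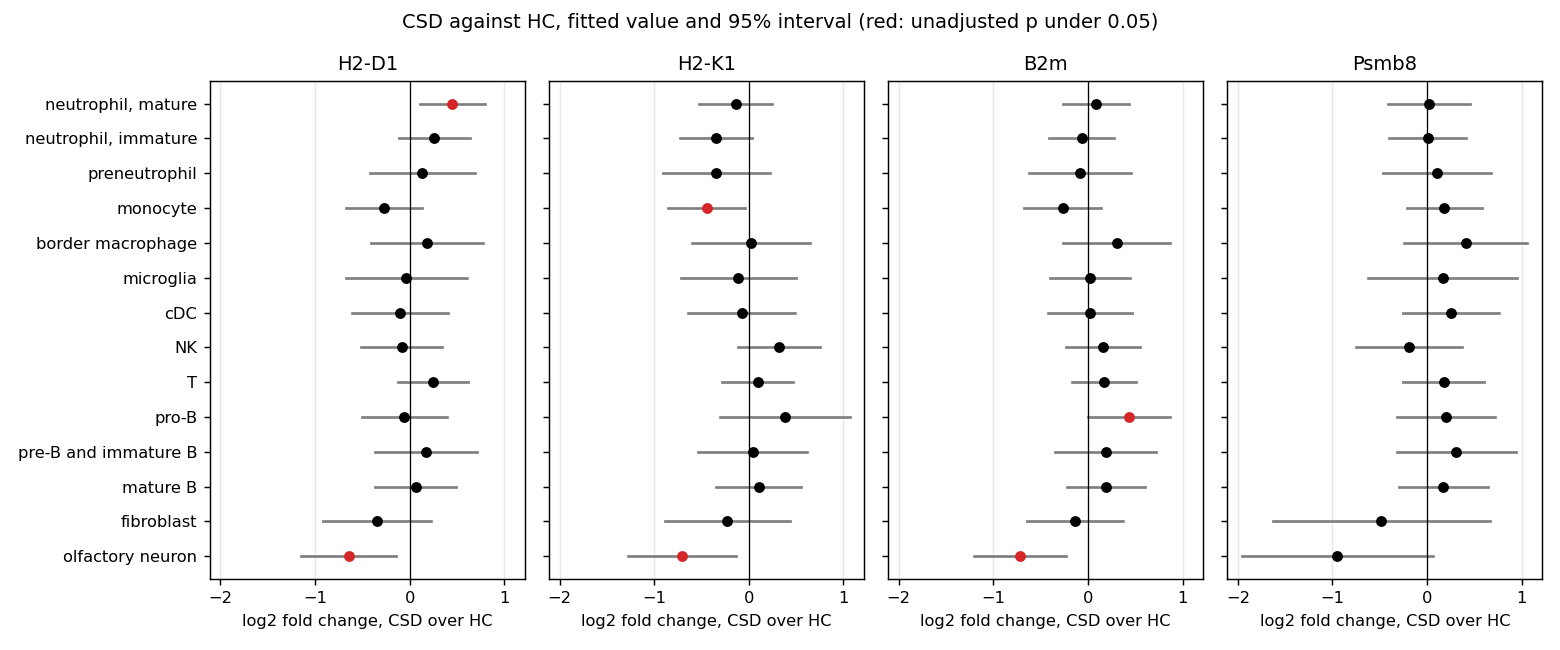
Log2 fold change of CSD over HC (x axis) for H2-D1, H2-K1, B2m and Psmb8 in 14 cell types, as the fitted value (point) and its 95% interval (line); red points have an unadjusted p under 0.05. H2-D1 lies at 0.45 in mature neutrophils, and H2-D1, H2-K1 and B2m lie at -0.65 to -0.72 in olfactory neurons, while no point passes after adjustment.

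Among the other myeloid cells, border macrophages had 8 members tested and 0 called (0.0223% of all genes), with a median log2 fold change of 0.19. The smaller of the 2 clusters of this class, which made up different shares of the pools, held less Psmb8 (312 ± 60 CPM) than the larger (500 ± 86 CPM), and its part in the comparison was not tested. Microglia had 6 tested and 0 called, where 0% of all genes were called. Tapbp was at 151 and 167 normalised CPM in HC and 84.7 in CSD microglia, from 58, 32 and 14 UMIs, a log2 fold change of -0.89 (SE 0.22, adjusted p = 0.966). B2m in microglia was at 3053, 3003 and 3080, a log2 fold change of 0.02 with an interval of -0.40 to 0.45. In cDC 8 were tested and 0 called (0.0426% of all genes).

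In lymphocytes no member passed either. NK cells had 6 tested and 0 called (1.04% of all genes) and T cells 8 and 0 (0.209%). Pro-B cells had 7 tested and 0 called, again with 0% of all genes called, and B2m there was at 1894, 1629 and 2378 normalised CPM (log2 fold change 0.43, adjusted p = 0.945). Pre-B and immature B cells had 6 tested and 0 called (0.309% of all genes), and all 6 point values lay above 0, with a median of 0.16 and intervals that include 0. Mature B cells had 7 tested and 0 called (0.0617%).

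Fibroblasts had 7 members tested and 0 called (0.689% of all genes), and all 7 lay below 0 with a median log2 fold change of -0.38. The estimated free RNA in these cells was 33.6, 33.6 and 18.2%, and with the empty-droplet profile subtracted the median was 0.0232. The CSD library held 20 fibroblasts against 124 and 89 in HC. Tapbp rested on 87, 69 and 6 UMIs, with a log2 fold change of -1.16 (SE 0.53, adjusted p = 0.414). Tap2 had 16, 16 and 0 UMIs. Its floor of 3 UMIs in that library is 43.3 CPM, within the HC range, so no fold change is given; with Tap2 at that floor the median of the 7 was -0.34. Olfactory neurons had 5 tested and 0 called (0.597%), and 3 of the 5 had an unadjusted p under 0.05. B2m was at 555, 504 and 322 normalised CPM (-0.72, adjusted p = 0.352), and H2-K1 and H2-D1 lay at -0.71 and -0.65. The estimated free RNA in these cells was 36.3, 33.1 and 17.4%, in the same order as B2m. Empty droplets held B2m at 1797, 1757 and 1375 CPM, above its level in these cells in every library. With the empty-droplet profile subtracted, no member could be tested in olfactory neurons. The part of free RNA in the result was therefore not tested.

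A wider list of 59 class I pathway genes, of which 56 were in the matrix, gave the same picture apart from 1 gene. Over the 14 types 1 of 406 tests was called by edgeR and 26 had an unadjusted p under 0.05. Over all genes edgeR called 0.401% and gave 6.36% an unadjusted p under 0.05. DESeq2 called 0 of the 406 and gave 2 an unadjusted p under 0.05. Over all genes it called 26 of 53321 and gave 414 an unadjusted p under 0.05. The gene called was Fcgrt, the heavy chain of the neonatal Fc receptor, which pairs with B2m but carries immunoglobulin G and albumin in place of peptides. It fell in preneutrophils, from 47.0 and 29.8 normalised CPM in HC to 12.4 in CSD (log2 fold change -1.74, adjusted p = 0.0188). It also fell in the pooled neutrophils, at 54.5, 26.3 and 6.14 normalised CPM (-2.74, SE 0.39, adjusted p = 8.66e-05). The 2 HC pools themselves differed, and the empty droplets held Fcgrt at 149, 107 and 66.1 CPM, above the neutrophil level in each library and lowest in CSD. Fibroblasts held it at 509 ± 34 CPM. With the empty-droplet profile subtracted, neither call remained.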

How the data were processed

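Single-cell RNA-seq counts from meninges were analysed. Live, nucleated singlets (DAPI- DRAQ5+) had been sorted, and the authors processed 10x 3′ libraries with Cell Ranger 2 against mm10. The deposited matrix holds raw UMI counts for every barcode, empty droplets included, with the 3 libraries told apart by barcode suffix, and was not normalised. A second CSD pool had been lost during encapsulation, per the study's methods. The members and gene lists here were chosen with earlier results of these data known.

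Barcodes with at least 500 UMIs, 174 to 4548 genes and under 8.3% mitochondrial UMIs were kept. Cells were clustered on 3000 variable genes without the class I list (50 components, mutual-nearest-neighbour correction between libraries, Leiden resolution 1; scanpy 1.11.5, leidenalg 0.10.2). The 22 clusters were named from marker lists, and 2 stayed unnamed (197 and 187 cells). Doublets stayed in, and leaving out those that Scrublet marked was an alternative. Levels are CPM of UMIs summed per type and library. CSD was compared with HC by edgeR 4.0.16 (glmQLFit, TMM) in R 4.3.3, with 1 residual degree of freedom. DESeq2 1.42.0 was an alternative. Nothing in the labels says that the 2 HC pools are more than separate pools, so p-values measure the spread between those pools. The tests share that spread across genes, so the p-value of a gene does not rest on its own 2 HC values alone. Fewer cells of a stage within a type and less RNA per cell cannot be told apart in such sums. Free RNA was estimated from marker genes of other types against the profile of barcodes of at most 100 UMIs.

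All 10 members were named. Of the pathway list, the genes past the threshold were named (up to 10 per type), and for likeness the 5 genes with the highest correlation with each sum, among those of at least 20 CPM on average. Tested on simulated data, edgeR recovered 88% of 2-fold changes in pooled neutrophils (6873 genes), 76% in monocytes (4471) and 91% in mature B cells (3239), and DESeq2 50, 45 and 59%. False calls among the unchanged genes numbered 10, 16 and 8 with edgeR and 0 in each with DESeq2. Only genes with many UMIs were changed in the simulation, and every gene and pool was given the same fixed spread. The recovery rates therefore do not describe the sparse members, or a CSD pool that varies more than that. Promoter stretches were compared by local alignment (biotite 1.4.0). Gene coordinates and 3′ windows came from GENCODE vM21 on the same build.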

Additional observations from a re-analysis of the deposited data

How the results depend on the processing

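No paired analysis was possible because nothing in the labels pairs an HC pool with the single CSD pool. The depth limited the sparse members most: Tap2, Nlrc5 and, outside mature neutrophils, H2-Q10 rested on few UMIs per type. The 0 members called became 2 with no filter on low counts (H2-D1 in mature and in pooled neutrophils) and 3 with no correction between libraries (H2-D1, H2-K1 and B2m in monocytes). The 2 class I calls became 1 with DESeq2, 5 with no filter, 0 with the filter of 15% of cells, 0 with the empty-droplet profile subtracted and 8 with no correction. In the difference between neutrophils and monocytes, 0 became 1 with median-of-ratios size factors, 1 with no filter and 1 with the 15% filter. The causes were not tested.

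Of 175 recomputed medians of the members, 163 kept their sign and 12 changed it, over a range of -0.73 to 0.37. Those that moved by more than the spread were, for mature neutrophils, 0.27 with no filter, -0.0485 with the 15% filter and 0.19 with the subtraction; for preneutrophils, 0.13 with no filter and 0.37 with the subtraction; for fibroblasts, -0.73 with no filter and 0.0232 with the subtraction. The monocyte median was -0.33 with the subtraction, -0.23 with a higher UMI minimum per barcode, -0.32 without Scrublet doublets and -0.61 with no correction; leaving out either HC pool gave -0.30 to -0.19.

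The log2 ratios to neutrophils kept their sign in all types but fibroblasts, where recomputed values reached below 0 (-0.12 to -0.01). After subtraction of the empty-droplet profile the class I and peptide-processing ratios were 2.03 and 2.17 in T cells, 2.31 and 2.18 in NK cells, 1.33 and 1.70 in mature B cells, 1.43 and 1.72 in monocytes, and 1.80 and 1.60 in border macrophages. The NK-like cluster gave a class I ratio of 1.68 without doublets and 1.58 with no correction. It held 489 and 697 cells in those settings in place of 202, so these ratios are not for the same set of cells. In UMIs per cell the ratios were 0.39 and 0.67 in mature B cells, 2.01 and 2.22 in monocytes, 0.58 and 0.61 in fibroblasts, and 1.56 for class I in border macrophages. No T-like cluster was named without doublets or with no correction, fibroblasts fell under the cell minimum with a mitochondrial share under 5% and without doublets, and no member could be tested in olfactory neurons after the subtraction.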
